A study of Mus musculus with 12 samples.

Results

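Transcripts of 10 enzymes that build or cap the sugar chains of thymocyte proteins were compared between AND-TCR–transgenic and C57BL/6 thymocytes. The genes were the sialyltransferases St6gal1, St3gal1, St3gal4 and St3gal6, the O-glycan enzymes Galnt6, Gcnt1 and Gcnt2, and the N-glycan and galactose enzymes Man1a, Mgat5 and B4galt1. They were 10 of 15964 genes that the annotation gives for the arrays. All probe sets whose only annotated symbol was 1 of these genes were taken, whatever their values, which gave 25 of the 36701 probe sets. Of these, 11 were on the U74Av2 array, 8 on U74Bv2 and 6 on U74Cv2. A probe set is a group of short oligonucleotides for 1 transcript, and several of them on 1 array share the RNA and the hybridization, so they are not replicates.

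The study hybridized RNA of total thymocytes to these 3 Affymetrix array types, with 2 arrays of each type for a group (12 arrays). The first group were mice transgenic for the AND TCR on the H-2b background. The AND TCR is a rearranged receptor for MHC class II, and H-2b positively selects thymocytes that bear it toward the CD4 lineage. The C57BL/6 mice, which are also H-2b, carried no transgene and served as the wild type. The sources used here do not give the promoter of the transgene, nor the number and the age in weeks of the mice. The labels name a first and a second hybridization and the study speaks of 2 independent experiments, and neither says whether these used separate mice, so the p-values measure only the spread between hybridizations, which may be technical.

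Sugar chains are added to proteins in the endoplasmic reticulum and the Golgi, on asparagine (N-glycans) or on serine and threonine (O-glycans), and most steps have a transferase of their own. Mannosidases trim N-glycans, GlcNAc transferases add branches, galactosyltransferases extend them, and sialyltransferases cap the ends with sialic acid. In the thymus these ends change with maturation. Immature cortical thymocytes bind the lectin peanut agglutinin through galactose that is not covered by sialic acid on their O-glycans, and mature thymocytes largely lose that binding.

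St6gal1 and Galnt6 are the genes with a probe set that passed the test, so the sequences around their annotated transcription starts are shown. All of their starts in the promoter table from RefSeq (GRCm38.p6) are given, each from 250 bases before to 50 after the start. Capitals mark E boxes (CANNTG) and GC boxes (GGGCGG, or CCGCCC on the other strand), searched on both strands together with the RUNX motif TGTGGT, which had no match here. The arrays measure transcripts and cannot tell from which start they came.
St6gal1, chr16:23224490-23224789, plus strand: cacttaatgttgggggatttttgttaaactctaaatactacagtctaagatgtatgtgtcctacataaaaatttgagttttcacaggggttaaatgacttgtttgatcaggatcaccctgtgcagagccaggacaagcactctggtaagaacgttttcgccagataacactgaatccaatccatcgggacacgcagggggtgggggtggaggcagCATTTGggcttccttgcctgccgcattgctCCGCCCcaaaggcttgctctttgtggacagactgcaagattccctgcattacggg
St6gal1, chr16:23225771-23226070, plus strand: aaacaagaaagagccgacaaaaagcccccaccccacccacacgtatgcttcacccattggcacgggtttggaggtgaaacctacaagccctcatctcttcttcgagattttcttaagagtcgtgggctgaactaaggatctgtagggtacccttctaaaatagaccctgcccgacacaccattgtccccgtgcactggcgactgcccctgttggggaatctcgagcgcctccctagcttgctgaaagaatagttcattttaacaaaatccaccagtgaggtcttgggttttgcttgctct
St6gal1, chr16:23290220-23290519, plus strand: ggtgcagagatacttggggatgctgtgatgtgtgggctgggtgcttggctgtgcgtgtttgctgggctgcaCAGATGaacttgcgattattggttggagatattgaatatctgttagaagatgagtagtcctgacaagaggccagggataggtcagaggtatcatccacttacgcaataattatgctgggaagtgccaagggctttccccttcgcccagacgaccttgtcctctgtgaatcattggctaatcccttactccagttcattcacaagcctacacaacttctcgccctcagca
Galnt6, chr15:100729327-100729626, minus strand: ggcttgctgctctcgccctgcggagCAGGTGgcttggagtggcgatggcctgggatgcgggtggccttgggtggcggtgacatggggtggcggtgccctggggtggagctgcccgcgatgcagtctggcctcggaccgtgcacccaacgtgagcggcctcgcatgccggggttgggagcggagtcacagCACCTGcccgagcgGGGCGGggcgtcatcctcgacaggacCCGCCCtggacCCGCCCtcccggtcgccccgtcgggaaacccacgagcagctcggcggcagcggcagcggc
Galnt6, chr15:100720428-100720727, minus strand: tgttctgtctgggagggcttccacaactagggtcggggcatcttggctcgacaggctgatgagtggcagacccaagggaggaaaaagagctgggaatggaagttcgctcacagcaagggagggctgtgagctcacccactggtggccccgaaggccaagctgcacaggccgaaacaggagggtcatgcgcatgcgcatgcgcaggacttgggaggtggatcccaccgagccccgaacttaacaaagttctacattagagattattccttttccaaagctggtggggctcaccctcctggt

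The first St6gal1 start had 1 E box and 1 GC box, the second had no match and the third had 1 E box. The first Galnt6 start had 2 E boxes and 3 GC boxes and a GC content of 73.7%, and the second Galnt6 start had no match. Of all 32851 promoters of this length, 72.3% held an E box, 35.7% a GC box and 16.8% the RUNX motif, and their median GC content was 52.7%. Among all 10 genes, 9 had starts in the table, 17 in all, and St3gal1 had none there.

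Intensities are given in the arbitrary units of the arrays, scaled by the authors to the same mean on every array. A negative value arises where mismatched control oligonucleotides bound more than the matched ones. The detection limit, 2 SDs of the noise seen in the negative values, came to 420.8 on U74Av2, 869.4 on U74Bv2 and 1579 on U74Cv2. Group differences were computed within 1 probe set at a time, and means of different probe sets were set against each other only to choose 1 probe set per gene for the gene lists. A probe set was tested where both arrays of a group, or of both groups, exceeded the limit, which was so for 13 of the 25 and for 8 of the 10 genes, and for 35% of all probe sets. Of the 12 others, 11 were under the limit on all 4 arrays, and the St3gal6 probe set 109390_at was above it on 1 array. The tested probe sets were above the limit on all 4 arrays in 10 cases. Of the remaining 3, St3gal6 102208_at and Galnt6 133440_at passed the filter through the AND-TCR–transgenic arrays and St3gal4 95599_at through the C57BL/6 arrays.

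**Figure D1:**
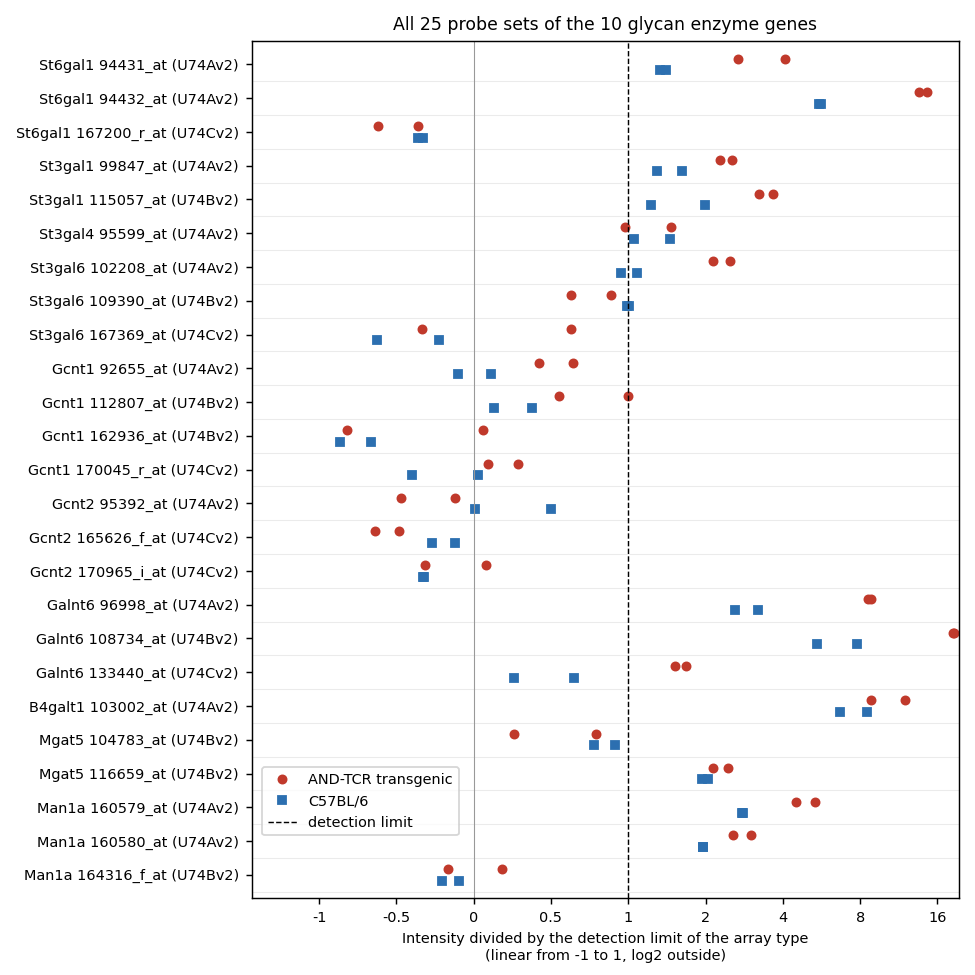
Intensity of all 25 probe sets on each array, divided by the detection limit of the array type, on an axis that is linear from -1 to 1 and log2 outside. Circles are the 2 AND-TCR–transgenic arrays, squares the 2 C57BL/6 arrays, and the dashed line the limit. The Gcnt1 and Gcnt2 probe sets lie left of the limit on every array, and both St6gal1 probe sets of U74Av2 have circles to the right of the squares.

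St6gal1 was higher in AND-TCR–transgenic thymocytes. It encodes the enzyme that caps the galactose of N-glycans with sialic acid and makes the ligand of the B cell lectin CD22. Its probe set 94432_at read 5698 and 6105 in AND-TCR–transgenic thymocytes, against 2324 and 2361 in C57BL/6 thymocytes. Both transgenic arrays lay above both wild-type arrays, by more than the hybridizations of either group differed. The means were 5902 ± 288 in AND-TCR–transgenic and 2343 ± 26.3 in C57BL/6 thymocytes (SD, n = 2 each). The 2.52-fold difference, a log2 fold change of 1.33 ± 0.17 (SE), passed limma's test over all probe sets (adjusted p = 0.0202, Benjamini-Hochberg). The log2 ratio was 1.29 in the first hybridization and 1.37 in the second. In RNA of whole thymocyte preparations, more cells that carry a transcript and more transcript per cell cannot be told apart, here and in all results that follow.

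The other tested St6gal1 probe set, 94431_at, lay on the same side in both hybridizations. It read 1710 and 1125 in AND-TCR–transgenic thymocytes, against 588 and 558 in C57BL/6 thymocytes. Its log2 fold change was 1.28 ± 0.35, close to that of the first probe set but with a larger error, and it did not pass (limma adjusted p = 0.169). The third, 167200_r_at on U74Cv2, read -565 and -979 in AND-TCR–transgenic and -565 and -518 in C57BL/6 thymocytes. All of these are below 0, so this probe set gave no level on any array.

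The sialyltransferases that cap galactose in the other linkage gave differences that did not pass. St3gal1 sialylates the galactose of the short O-glycan that peanut agglutinin recognizes. Its probe set 115057_at read 3176 and 2820 in AND-TCR–transgenic thymocytes, against 1725 and 1070 in C57BL/6 thymocytes, without overlap (log2 fold change 1.14 ± 0.33, limma adjusted p = 0.226). Its probe set 99847_at read 1068 and 954 in AND-TCR–transgenic thymocytes, against 544 and 682 in C57BL/6 thymocytes (log2 fold change 0.73 ± 0.31, limma adjusted p = 0.365). On both array types, then, the transgenic arrays were the higher ones for St3gal1.

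St3gal6 and St3gal4 sialylate galactose on longer chains, including those that selectins bind. St3gal6 102208_at read 901 and 1045 in AND-TCR–transgenic thymocytes, against 400 and 454 in C57BL/6 thymocytes, of which only 454 was above the limit. Its log2 fold change, with 400 raised to the limit, was 1.15 ± 0.28 (unadjusted p = 0.00436, adjusted p = 0.129, limma), and the 2 hybridizations gave 1.10 and 1.20. The second St3gal6 probe set, 109390_at, did not repeat this order. It read 773 and 548 in AND-TCR–transgenic thymocytes, against 865 and 873 in C57BL/6 thymocytes, close to or under its limit. The third, 167369_at, read -526 and 997 in AND-TCR–transgenic and -354 and -986 in C57BL/6 thymocytes, all under the limit.

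St3gal4 gave overlapping groups. Its probe set 95599_at read 620 and 412 in AND-TCR–transgenic thymocytes, against 612 and 442 in C57BL/6 thymocytes. The log2 fold change was -0.03 ± 0.30 (limma adjusted p = 0.984), with a 95% interval of -0.74 to 0.69. These levels were near the detection limit, and a difference of a size within that interval is not excluded.

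**Figure D2:**
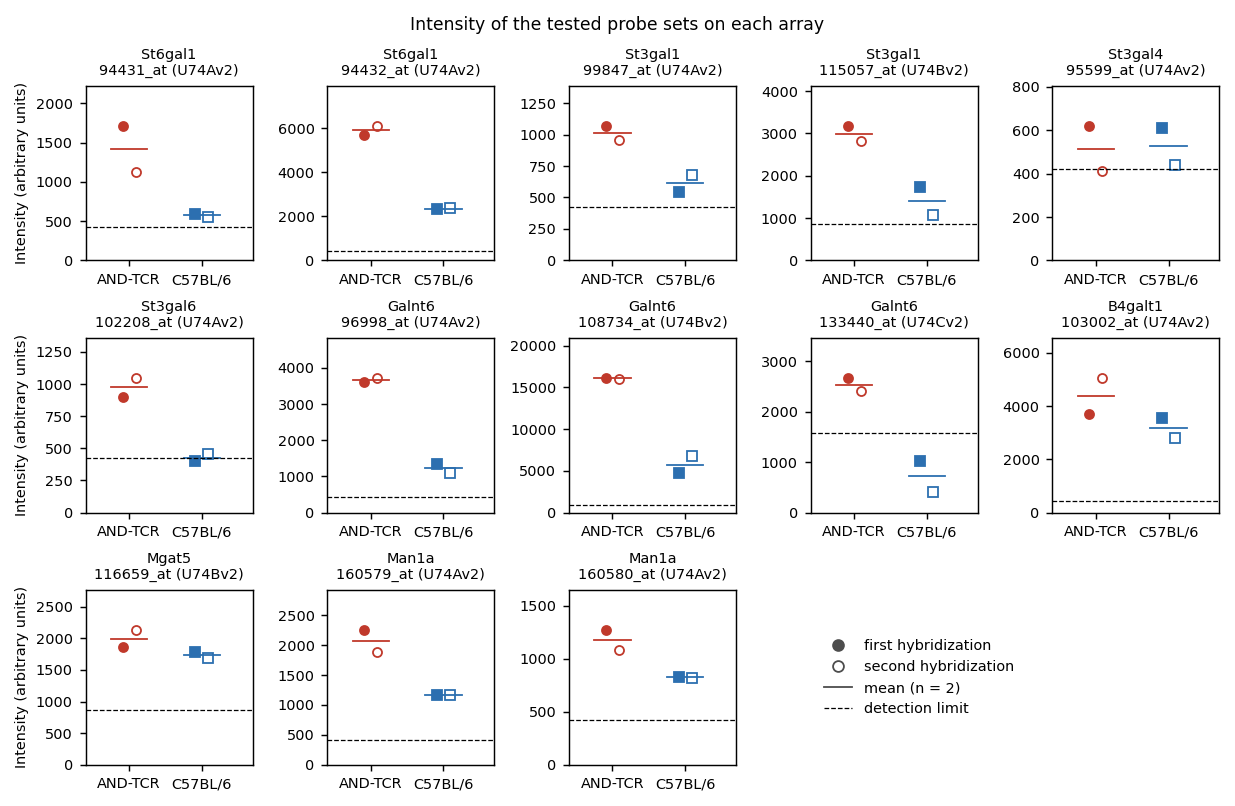
Intensity, in arbitrary units from 0, of each of the 13 tested probe sets on the AND-TCR–transgenic arrays (left) and the C57BL/6 arrays (right). Filled symbols are the first and open symbols the second hybridization, lines are means of 2 arrays, and the dashed line is the detection limit. St6gal1 94432_at and Galnt6 96998_at and 108734_at show the widest separation relative to the spread within groups, and St3gal4 95599_at the least.

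Galnt6 was the gene with the largest log2 fold change among the 10. It encodes a polypeptide GalNAc transferase, which starts O-glycans by putting GalNAc on serine or threonine. Its probe set 96998_at on U74Av2 read 3597 and 3715 in AND-TCR–transgenic thymocytes, against 1348 and 1093 in C57BL/6 thymocytes. Its probe set 108734_at on U74Bv2 read 16090 and 16043 in AND-TCR–transgenic thymocytes, against 4706 and 6772 in C57BL/6 thymocytes. In both, the transgenic arrays agreed closely and the wild-type arrays were lower and more spread.

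The 2 Galnt6 probe sets passed the test on separate array types. The log2 fold change of 96998_at was 1.59 ± 0.24, a 3.01-fold difference (limma adjusted p = 0.0343), with 1.42 and 1.77 in the first and the second hybridization. That of 108734_at was 1.51 ± 0.18, a 2.85-fold difference (limma adjusted p = 0.0342), with 1.77 and 1.24. The order of the hybridizations therefore differed between the array types. On U74Cv2, 133440_at read 2660 and 2404 in AND-TCR–transgenic thymocytes, against 1024 and 408 in C57BL/6 thymocytes. Both wild-type values were under the limit, so the difference is given as at least 1.60-fold (limma adjusted p = 0.220).

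The branching enzymes Gcnt1 and Gcnt2 gave no measurable level. Gcnt1 adds the GlcNAc branch to the O-glycan core, and Gcnt2 branches chains of repeated galactose and GlcNAc. None of the 16 readings of the 4 Gcnt1 probe sets and none of the 12 readings of the 3 Gcnt2 probe sets reached the limit. The Gcnt1 probe set 112807_at came nearest, with 479 and 867 in AND-TCR–transgenic and 115 and 326 in C57BL/6 thymocytes against a limit of 869.4. For Gcnt1 92655_at the readings were 177 and 270 in AND-TCR–transgenic and -42 and 46 in C57BL/6 thymocytes. These values lay within the noise, so neither a level nor a difference between the groups can be given. The remaining Gcnt1 readings lay between -751 and 457, and those of Gcnt2 between -1012 and 211.

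Among the N-glycan enzymes, Man1a had the larger differences. It encodes a Golgi mannosidase that trims mannose before complex N-glycans can be built. Its probe set 160579_at read 2246 and 1889 in AND-TCR–transgenic thymocytes, against 1174 and 1163 in C57BL/6 thymocytes (log2 fold change 0.82 ± 0.28, unadjusted p = 0.0206, adjusted p = 0.253, limma). Its probe set 160580_at read 1266 and 1080 in AND-TCR–transgenic thymocytes, against 824 and 822 in C57BL/6 thymocytes (log2 fold change 0.51 ± 0.32, limma adjusted p = 0.545). In both the groups did not overlap, and the wild-type hybridizations were almost equal. The third, 164316_f_at, was under the limit on all 4 arrays.

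Mgat5 and B4galt1 gave the smallest differences apart from St3gal4. Mgat5 adds a GlcNAc branch to N-glycans and, in mouse T cells, is known to restrain TCR clustering through galectin binding. Its probe set 116659_at read 1855 and 2124 in AND-TCR–transgenic thymocytes, against 1781 and 1685 in C57BL/6 thymocytes. The log2 fold change of 0.20 ± 0.27 (limma adjusted p = 0.817) had a 95% interval of -0.48 to 0.88, and 104783_at was under the limit on all 4 arrays. B4galt1 adds the galactose that the sialyltransferases cap. Its probe set 103002_at read 3701 and 5047 in AND-TCR–transgenic thymocytes, against 3570 and 2800 in C57BL/6 thymocytes. The log2 ratio was 0.05 in the first hybridization and 0.85 in the second, and the fitted 0.45 ± 0.22 did not pass (limma adjusted p = 0.433, 95% interval -0.07 to 0.98).

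**Figure D3:**
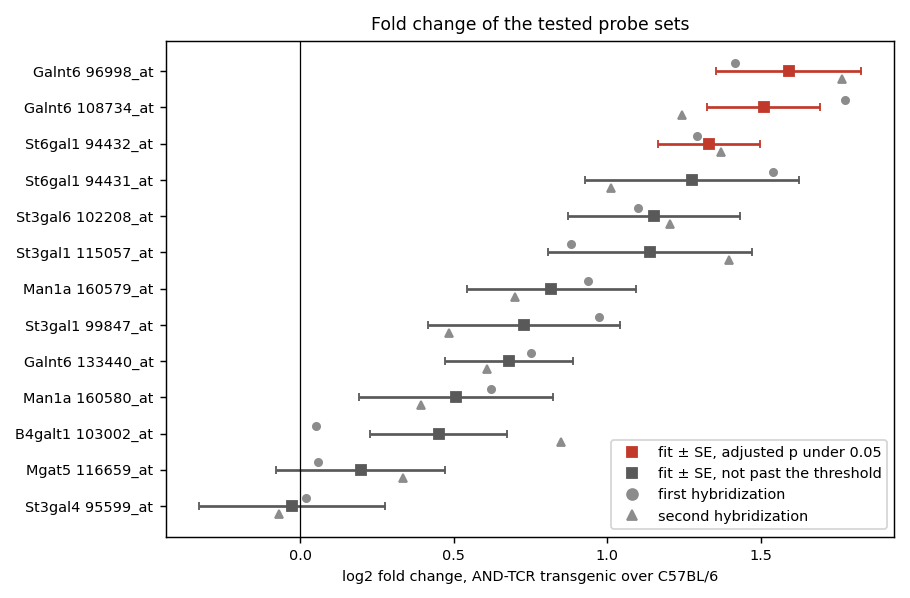
Log2 fold change, AND-TCR–transgenic over C57BL/6, of the 13 tested probe sets on the x axis, as fitted by limma (squares, bars are ± 1 SE) and within the first (circles) and the second hybridization (triangles). The 3 red squares passed an adjusted p under 0.05, and the value of Galnt6 133440_at rests on the detection limit for C57BL/6 and is a lower bound.

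Over the 13 tested probe sets, 3 rose and 0 fell in AND-TCR–transgenic thymocytes at an adjusted p under 0.05 (limma). Over all 12845 tested probe sets, 62 (0.483%) rose and 73 (0.568%) fell. At an unadjusted p under 0.05, 8 of the 13 were higher and 0 lower, where 7.47% of all tested probe sets were higher and 6.51% lower. At least 2-fold higher in both hybridizations were 5 of the 13, against 1.19% of all. Some of these probe sets had passed the filter through the group where they were high, so the counts were repeated over the 10 that exceeded the limit on every array. Of these, 6 were higher and 0 lower at an unadjusted p under 0.05, against 6.04% and 5.4% of all such probe sets, and 4 were at least 2-fold higher in both hybridizations, against 0.836%. Both transgenic arrays read above both wild-type arrays for 12 of the 13, all but St3gal4 95599_at, where this held for 23% of all tested probe sets and the reverse for 21.4%. All of the 10 above the limit on every array had this order, against 21.5%. The probe sets of a gene count separately here, and the genes were chosen with results of these arrays known.

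The 3 calls rested on the estimate of the spread. With the hybridization number as a replicate block in limma they kept an adjusted p of 0.000951 for St6gal1 94432_at, 0.0030 for Galnt6 96998_at and 0.0139 for Galnt6 108734_at, against 1.18% of all probe sets then higher. A crossed block, which pairs arrays of unlike number, was chosen after seeing the data. It gave still smaller adjusted p-values (2.09e-05, 0.00012 and 0.000381, limma). Smaller p-values under the block, here and below, therefore do not show that pairing by hybridization removed spread. Without a trend in the prior variance none of the 13 passed (adjusted p = 0.0995, 0.0937 and 0.119 for the same probe sets). Leaving out either AND-TCR–transgenic array or either C57BL/6 array left 0 of the 12845 probe sets past the threshold, while the log2 fold changes of these 3 then lay between 1.25 and 1.77.

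None of the tested enzymes on the lists of other glycan genes passed the test, and with the replicate block 1 of them, B4galnt1, did. For every gene the probe set of highest mean intensity was used, a choice that sets array types with different limits against each other. It took the untested 109390_at for St3gal6, so that 7 of the 10 genes were tested, with a median log2 fold change of 0.82, against 0.02 over all tested probe sets. With the probe set of the highest rank on its own array type, 8 were tested, St3gal6 102208_at included, and the median was 0.98. Of 15 other sialyltransferases on the arrays 6 were tested and 0 rose or fell (limma, 1 higher and 0 lower at an unadjusted p under 0.05), with a median of 0.41. St8sia4, which builds polysialic acid, read 2889 and 2002 in AND-TCR–transgenic thymocytes, against 1320 and 1472 in C57BL/6 thymocytes (log2 fold change 0.79 ± 0.28, limma adjusted p = 0.282). St6galnac2 read 1238 and 3235 in AND-TCR–transgenic thymocytes, against 1471 and 1837 in C57BL/6 thymocytes, so its groups overlapped. The ranges of St8sia1 and St8sia5 overlapped too, with log2 fold changes of -0.14 and -0.12.

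Genes that make, modify or remove sialic acid gave no call. Of 10 on the arrays 8 were tested, and 0 rose or fell (limma, 0 higher and 1 lower at an unadjusted p under 0.05), with a median log2 fold change of -0.08. Cmah, the hydroxylase that turns N-acetyl- into N-glycolylneuraminic acid, read 7152 and 8564 in AND-TCR–transgenic thymocytes, against 12426 and 11941 in C57BL/6 thymocytes. Its log2 fold change was -0.64 ± 0.12 (limma adjusted p = 0.105). Neu2, Nans and Ctsa had log2 fold changes of -0.54, 0.20 and -0.09, with SEs of 0.35, 0.22 and 0.30.

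The other O-glycan and N-glycan enzymes had medians near 0. Of 18 other O-GalNAc glycan enzymes on the arrays 9 were tested, 0 rose or fell (limma, 0 higher and 1 lower at an unadjusted p under 0.05), and the median log2 fold change was -0.00. C1galt1, which adds the galactose that St3gal1 caps, read 2806 and 2558 in AND-TCR–transgenic thymocytes, against 3729 and 3762 in C57BL/6 thymocytes (log2 fold change -0.48 ± 0.18, limma adjusted p = 0.328). The GalNAc transferases Galnt1, Galnt2 and Galnt7, of the family of Galnt6, had log2 fold changes of -0.16, -0.07 and 0.22, with SEs of 0.22, 0.18 and 0.16. Of 33 other N-glycan enzymes 24 were tested and 0 rose or fell (limma, 2 higher and 3 lower at an unadjusted p under 0.05), with a median of -0.03. The 3 lower were the mannosidases Man1a2 and Man1c1 and the GlcNAc transferase Mgat4a, with log2 fold changes of -0.69, -0.92 and -0.54. For Man1c1 and Mgat4a the AND-TCR–transgenic values were under the limit. The 2 higher were Stt3b and the mannosidase Man2a2, with 0.89 and 0.71. Mogs, Stt3a, Dad1 and Uggt1, which trim, transfer or check N-glycans in the endoplasmic reticulum, had log2 fold changes between -0.14 and 0.34.

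Among the remaining transferases, B4galnt1 came nearest to the threshold. Of 28 other galactosyl, GlcNAc and fucosyl transferases 12 were tested and 0 rose or fell (limma, 3 higher and 0 lower at an unadjusted p under 0.05), with a median log2 fold change of 0.04. B4galnt1, which makes complex gangliosides, read 4866 and 5887 in AND-TCR–transgenic thymocytes, against 2525 and 2762 in C57BL/6 thymocytes (log2 fold change 1.02 ± 0.18, limma adjusted p = 0.0577, and 0.00723 with the replicate block). Lfng, which adds GlcNAc to fucose on Notch receptors, read 4390 and 4110 in AND-TCR–transgenic thymocytes, against 1781 and 2191 in C57BL/6 thymocytes (log2 fold change 1.10 ± 0.21, limma adjusted p = 0.102). Ogt and B3galt1 had log2 fold changes of -0.46 ± 0.27 and 0.26 ± 0.24.

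Of the glycoproteins and lectins that carry or read these sugars, 2 fell. Cd8b1 read 13143 and 14473 in AND-TCR–transgenic thymocytes, against 33502 and 33035 in C57BL/6 thymocytes (log2 fold change -1.27 ± 0.13, limma adjusted p = 0.0111). Cd8a read 10871 and 10251 in AND-TCR–transgenic thymocytes, against 18420 and 20338 in C57BL/6 thymocytes (log2 fold change -0.87 ± 0.13, limma adjusted p = 0.0363). They encode the chains of CD8, which is carried by double-positive and by CD8 single-positive thymocytes. Of 17 such genes on the arrays 12 were tested, with a median of -0.20, and 2 were higher and 5 lower at an unadjusted p under 0.05 (limma). The 2 higher ones, Spn and Cd33, had log2 fold changes of 1.18 and 0.95 and did not pass the adjusted threshold. Spn read 2006 and 275 in C57BL/6 thymocytes, the second under the limit, and its other tested probe sets gave 0.37 and 0.41. Cd33 read 1534 and -312 in C57BL/6 thymocytes, both under the limit, so its value rests on that limit. Cd4, Thy1, Ptprc and Selplg had log2 fold changes of -0.56, -0.29, -0.01 and 0.16 and did not pass.

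**Figure D4:**
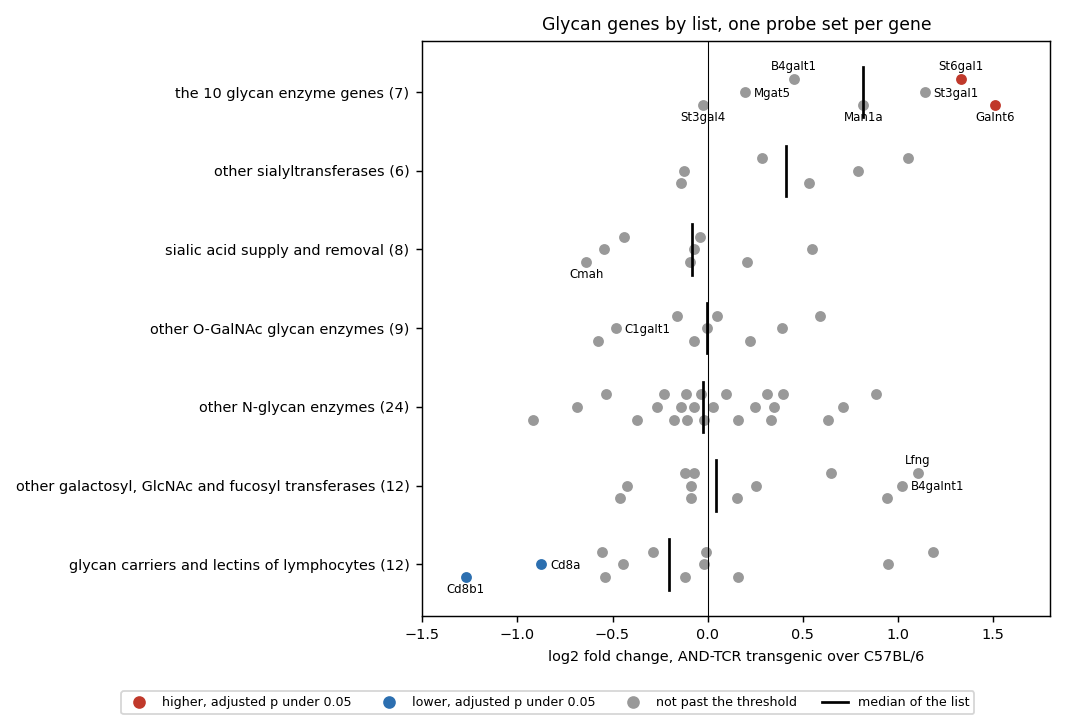
Log2 fold change, AND-TCR–transgenic over C57BL/6, of the tested genes of each list at their probe set with the highest mean intensity, with the number of tested genes in parentheses and the list median as a bar. Red and blue points passed an adjusted p under 0.05. St6gal1 and Galnt6 are the red points, Cd8a and Cd8b1 the blue ones, and the medians run from -0.20 for the glycan carriers to 0.82 for the 10 glycan enzyme genes, which were chosen with these results known.

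Other differences ran with the groups, and their part in the results above was not tested. Cd8a and Cd8b1 fell, as given above. T lineage markers, 7 of 8 on the arrays and all tested, included 1 that rose, Cd2 (log2 fold change 0.91, limma adjusted p = 0.0330), and 0 that fell, and their summed U74Av2 intensity, with negative values taken as 0, was 99410 and 105860 in AND-TCR–transgenic and 91629 and 99532 in C57BL/6 thymocytes. B cells, which use St6gal1, were followed by 9 of 10 markers on the arrays, of which 5 were tested and 0 passed, and with the replicate block 1 did, Blk, which was higher (adjusted p = 0.0152). Their sum was 8164 and 9091 in AND-TCR–transgenic and 6750 and 5276 in C57BL/6 thymocytes, of which 1 probe set for the kinase Blk gave 3496 and 4127 in AND-TCR–transgenic and 1924 and 375 in C57BL/6 thymocytes. The defining marker Cd79a read 222 and 326 in AND-TCR–transgenic thymocytes, under the limit, against 920 and 986 in C57BL/6 thymocytes. Cd22 and Cr2 were under the limit on all arrays. Of the myeloid markers 10 were on the arrays, 5 were tested and 0 passed, and their sum was 7444 and 5937 in AND-TCR–transgenic and 3444 and 5149 in C57BL/6 thymocytes, with Itgam, Adgre1 and Mpo under the limit on all arrays. All 5 tested myeloid genes had log2 fold changes above 0, and S100a8 had the largest (1.01, limma adjusted p = 0.192), with 2782 and 1983 in AND-TCR–transgenic and 1254 and 1080 in C57BL/6 thymocytes. Erythroid markers, 4 of 8 on the arrays, had 2 tested and 0 that passed, 1 with the replicate block (Hba-a1, lower, adjusted p = 0.00886), and summed to 8435 and 6122 in AND-TCR–transgenic and 11113 and 13263 in C57BL/6 thymocytes, and 1 of 10 thymic epithelial markers was tested and did not pass. Genes that mark sex separated the 2 groups as well. Xist read -53 and -99 in AND-TCR–transgenic thymocytes, against 2878 and 3001 in C57BL/6 thymocytes, and the Y-linked Eif2s3y read 1649 and 1529 in AND-TCR–transgenic thymocytes, against -110 and 13 in C57BL/6 thymocytes, so sex and transgene cannot be told apart. The array records place all AND-TCR–transgenic arrays on 1 fluidics module and all C57BL/6 arrays on another, which cannot be told apart from the groups either, while each hybridization day held both groups.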

How the data were processed

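Biotin-labeled cRNA of total thymocytes was hybridized to 12 Affymetrix arrays (3 types, 4 arrays each), which the authors scanned and analyzed with Microarray Suite. They deposited linear intensities, some of them negative, and the authors had scaled every array: the mean without the lowest and highest 2% of values was 1000 on each. Between 20.1% and 37.8% of the values of an array were negative and 23.1% to 48.9% were above the limit. The sources used here state neither the kind of value nor the scaling target. The number of arrays limits the precision.

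The noise SD of an array type was 1.4826 times the median size of its negative values. Intensities under 2 noise SDs were set to that limit before log2. The 66 control probe sets of each type were left out, and 12845 probe sets above the limit on both arrays of a group entered limma 3.58.1 (R 4.3.3; lmFit, eBayes with a trend), 1 fit per array type, with Benjamini-Hochberg adjustment over the 3 types together. The fit was tested on simulated data. Log2 ratios within a hybridization set arrays of the same number against each other. Alternatives were a replicate block, other floors, a pseudocount, no filter, quantile normalization, no trend and leaving out each array.

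Symbols came from the platform annotation and were checked through RefSeq gene identifiers, which kept all 25 symbols. All probe sets of the 10 genes were reported. Of each other glycan list, the text names every gene past the threshold and up to 4 others with the highest intensity rank on their array type. Further genes of these lists were named after their values were seen. They were Spn, Cd33, Stt3b, Man2a2, Man1a2, Man1c1 and Mgat4a. Markers were given by count and range, and those named with values (Cd2, Cd79a, Blk, S100a8, Hba-a1, the sex-marking genes) were chosen after their values were seen. The genes and lists were chosen with earlier results of these data known. Plots were made in matplotlib 3.10.9 under Python 3.11.15.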

Additional observations from a re-analysis of the deposited data

How the results depend on the processing

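Over all probe sets, 62 were higher and 73 lower in AND-TCR–transgenic thymocytes, and these counts depended on the estimate of the spread. They were 151 and 148 with the replicate block, 231 and 226 with a crossed replicate block (chosen after seeing the data), 159 and 168 with a pseudocount, 413 and 402 without the filter, 1 and 9 without the trend, and 0 and 0 without any 1 array (limma, 1290 to 1969 at an unadjusted p under 0.05). Without the filter, values set to the limit gave 42.6% to 66% of the probe sets of an array type a residual variance of exactly 0, so those counts are not reliable. The correlation of same-numbered deviations was 0.0354, -0.119 and -0.232 on the 3 array types, so no shared deviation of same-numbered arrays was visible. Same-numbered arrays of the groups did share the hybridization day, and on U74Av2 the chip lot changed with the day.

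Of the glycan enzyme probe sets, 3 were higher, 0 without the trend and 0 without any 1 array (6 to 7 at an unadjusted p under 0.05), where a lone array was assumed to vary like the other group. Each of the 3 kept its direction. St6gal1 94432_at had a log2 fold change of 1.33 without the trend (adjusted p = 0.0995) and 1.28 to 1.38 without 1 array (0.189 to 0.393). Galnt6 96998_at had 1.59 without the filter (0.0694) and without the trend (0.0937), and 1.44 to 1.74 without 1 array (0.257 to 0.393). Galnt6 108734_at had 1.51 without the trend (0.119) and 1.25 to 1.77 without 1 array (0.298 to 0.393). St3gal1 115057_at passed without the filter (0.0214). St3gal4 ranged from -0.31 to 0.25 without 1 array, and changed sign to 0.25 without AND-TCR–transgenic replicate 2 and 0.21 without C57BL/6 replicate 1. Under the other floors, the pseudocount and quantile normalization the 3 calls were kept. A floor at 4 noise SDs brought St3gal6 102208_at to a log2 fold change of 0.21 and St3gal1 99847_at to 0.26, since their C57BL/6 values then lay under the limit. The list medians kept their direction when a gene was averaged over its probe sets or taken at the probe set of the highest rank on its array type (chosen after seeing the data), except that of the other O-GalNAc glycan enzymes, which was 0.05 under both. That of the other sialyltransferases was 0.28 under the rank.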
